A study of Homo sapiens with 4 samples.

Results

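The Sm protein genes SNRPB, SNRPD1, SNRPD2, SNRPD3, SNRPE, SNRPF and SNRPG, and the PRMT5 adaptor genes CLNS1A, RIOK1 and COPRS, were examined in RNA-seq of UMSCC74B cells, a head and neck squamous cell carcinoma (HNSCC) line. The 10 genes were taken by name from tables of 29655 distinct gene names, and all 10 had a row in each table. There were 2 control libraries, from cells given a control shRNA plasmid, and 2 libraries labelled PRMT5 KD, from cells given a PRMT5 shRNA plasmid. Cells of both groups were collected after 72 h and carried no other stated treatment. The labels name transfection of plasmids, whereas the methods of the study name lentiviral particles. Nothing states that libraries of a group came from separate cultures, so the tests measure the spread between these libraries, which may be technical. The question addressed here is how mRNAs for substrates and substrate adaptors of PRMT5 compared between the groups.

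PRMT5 is the main enzyme that adds symmetric dimethyl groups to arginines, and it works in a complex with WDR77. The Sm proteins form a ring around the small nuclear RNAs (snRNAs) of the spliceosome. Arginine and glycine repeats in the tails of SmB, SmD1 and SmD3, encoded by SNRPB, SNRPD1 and SNRPD3, are classic PRMT5 substrates, and their methylation favours hand-over to the SMN complex, which loads the ring onto snRNA. CLNS1A encodes pICln, the chaperone that presents Sm proteins to PRMT5, RIOK1 encodes a kinase that competes with pICln for the same site on PRMT5 and recruits other substrates, and COPRS directs PRMT5 to histones.

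The coding sequence of the tails of SmD1 and SmD3 is shown because the repeats are what PRMT5 acts on. Each line gives the MANE Select coding sequence (GENCODE release 44, GRCh38) of a stretch rich in codon pairs in which an arginine codon (CGN, AGA or AGG) is directly followed by a glycine codon (GGN), read in frame on the coding strand. Capitals mark these pairs.
SNRPD1, chr18:21629070-21629123, plus strand, exon 4, codons 98 to 115: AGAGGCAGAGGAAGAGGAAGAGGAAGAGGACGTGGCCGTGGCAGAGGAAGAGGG
SNRPD3, chr22:24568146-24568176 in exon 3 joined to chr22:24571916-24571953 in exon 4, plus strand, codons 97 to 119: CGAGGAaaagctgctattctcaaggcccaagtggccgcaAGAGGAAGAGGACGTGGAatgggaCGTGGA
The SNRPD1 stretch holds 9 such pairs with no other codon between them. The SNRPD3 stretch holds 5, and other codons, in lower case, follow its first pair and precede its last. Over the whole coding sequence SNRPD1 has 10 pairs, SNRPB 8 and SNRPD3 7, whereas SNRPG has 2 and SNRPD2, SNRPE and SNRPF have 1 each. Of 19061 coding sequences searched, 29.1% had no pair, 4.39% had at least 8 and 2.44% had at least 10.

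The adaptors share a short motif by which each binds PRMT5, and it is shown because it is the sequence the 3 adaptor genes have in common. Capitals mark 7 consecutive codons for Gly, Gln, Phe, Asp or Glu, Asp, Ala, and Asp or Glu, again in the MANE Select reading frame.
CLNS1A, motif at chr11:77619640-77619660, minus strand, exon 6, codons 228 to 234 of 237: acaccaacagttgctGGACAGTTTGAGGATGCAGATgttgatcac
RIOK1, motif at chr6:7390042-7390062, plus strand, exon 1, codons 14 to 20 of 568: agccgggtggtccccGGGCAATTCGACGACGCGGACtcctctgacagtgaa
COPRS, motif at chr17:31852145-31852165, minus strand, exon 4, codons 177 to 183 of 184: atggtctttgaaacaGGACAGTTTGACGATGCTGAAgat
The motif was found in 3 of the 19061 coding sequences (0.0157%), which were those of CLNS1A, RIOK1 and COPRS. It lies near the end of the reading frame in CLNS1A and COPRS and near the start in RIOK1. A match describes the sequence only.

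Several facts of these libraries precede the results. Total counts ranged from 52185289 to 65964558 per library, and ribosomal RNA genes took 15.3% and 14.2% of counts in control and more in both PRMT5 KD-labelled libraries, up to 26.2%. PRMT5, the targeted gene, went against the label: in CPM (counts scaled to a common library size) its level was 94.3 and 84.2 in control and 132 and 149 in the PRMT5 KD-labelled libraries, a log2 fold change of 0.66 (SE 0.12, edgeR FDR = 0.00546), which lost its call without control 2 (0.58, edgeR FDR = 0.0678). WDR77 was at 53.2 and 42.3 CPM in control against 82.7 and 91.9, a log2 fold change of 0.87 (SE 0.15, edgeR FDR = 0.00349). The labels state that PRMT5 mRNA and protein were also assessed by quantitative PCR and immunoblot, which these tables do not hold. The paper reports that an immunoblot showed silencing by the PRMT5 shRNA. The 4 libraries are named by label only, and every direction below is that of the labelled groups. Of 8 squamous epithelial markers only TP63 passed the filter on low values, and it was lower under the PRMT5 KD label (−1.35). At low counts, 3 untested markers went the other way. KRT17 had 5 and 6 counts in control against 53 and 71, SFN 3 and 5 against 28 and 86, and KRT14 0 and 0 against 11 and 21.8. CDH1, EPCAM, KRT5 and KRT6A overlapped between the groups. The summed level of the 8 was 6.87 and 7.49 CPM in control and 4.56 and 7.92 in the other group, with KRT5 at 0, 0, 0 and 4 counts, so defining markers of the labelled cell type were near 0. All 6 fibroblast markers were called lower, with summed levels of 629 and 727 CPM in control against 87.6 and 97.2. Of 5 immune markers CD68 alone was tested (0.63, called higher; sums 94.7 and 113 against 153 and 170 CPM), and of 4 endothelial markers PECAM1 alone (−5.27, called lower; sums 10.9 and 14.7 against 2.10 and 1.15 CPM). MKI67, a marker of cycling cells that was chosen after its values were seen, was at 295 and 228 CPM in control against 826 and 756 (log2 fold change 1.60, edgeR FDR = 0.000756). In bulk RNA, fewer cells of a type and less RNA per cell cannot be told apart. The part of these differences in the results below was not tested.

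All 7 Sm protein genes were higher in the PRMT5 KD-labelled libraries, by 1.56-fold for SNRPD2 to 2.73-fold for SNRPB. Of the 3 adaptor genes, COPRS was higher, whereas RIOK1 and CLNS1A were not called, and CLNS1A had the only fold change below 0. The call required an FDR below 0.05 with a log2 fold change of 0.5 or more in size, in edgeR's quasi-likelihood test, adjusted by Benjamini-Hochberg over the 11898 protein-coding genes tested. All 10 genes passed the filter on low values. In this comparison 45.5% of all genes tested were called, 21.2% higher and 24.3% lower, so the 8 of 10 called here, all higher, are read against 21.2%. For none of the 10 genes did the control and PRMT5 KD-labelled libraries overlap, which was so for 80.5% of all genes tested (39.9% higher and 40.6% lower), and nothing about the 10 is read from it. The median log2 fold change was 0.86 over the Sm protein genes, 0.44 over the adaptors and −0.01 over all genes tested.

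**Figure D1:**
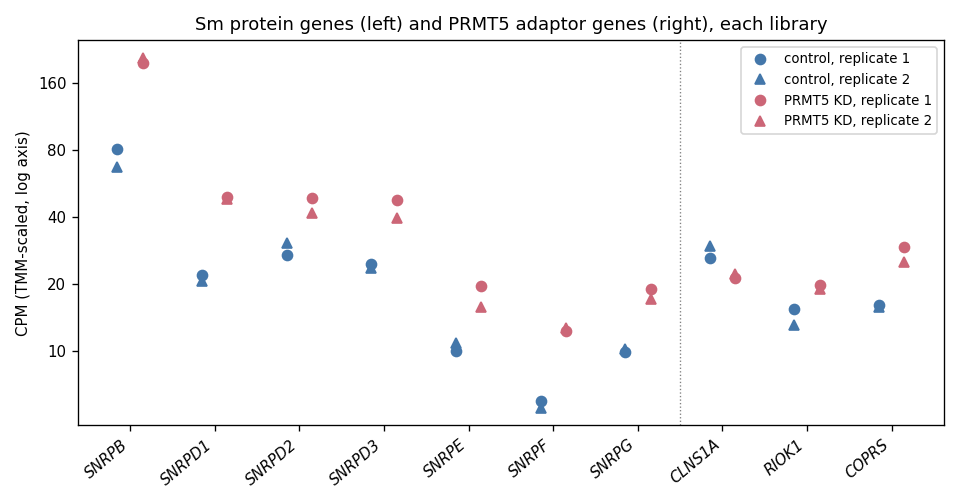
Level of each of the 10 genes in each of the 4 libraries, in TMM-scaled CPM on a log axis, with Sm protein genes on the left and adaptor genes on the right. Blue symbols are the 2 control and red symbols the 2 PRMT5 KD-labelled libraries, and red lies above blue in every gene but CLNS1A.

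SNRPB, SNRPD1 and SNRPD3 encode the Sm proteins with the repeat tails. SNRPB (chr20:2461634-2470853, minus strand) encodes SmB and, by alternative splicing, SmB′, which counts per gene do not separate. It was at 80.7 and 66.7 CPM in control (73.7 ± 9.88, SD, n = 2) and at 196 and 207 CPM in the PRMT5 KD-labelled libraries (201 ± 7.46, SD, n = 2). The difference was a log2 fold change of 1.45 (SE 0.13, edgeR FDR = 0.000511), and 4.77% of genes tested had a larger one. SNRPD1 (chr18:21612314-21633524, plus strand), whose tail has the longest unbroken repeat, was at 21.8 and 20.6 CPM in control and at 49.1 and 47.9 CPM in the other group. Its libraries were close together within each group (SD 0.908 and 0.843 CPM), and its log2 fold change was 1.19 (SE 0.11, edgeR FDR = 0.000571). SNRPD3 (chr22:24555958-24582052, plus strand) was at 24.6 and 23.6 CPM in control and at 47.7 and 39.5 CPM in the other group. The PRMT5 KD-labelled libraries differed more from each other here (SD 5.78 CPM) than the controls did (SD 0.753 CPM), and the log2 fold change was 0.86 (SE 0.14, edgeR FDR = 0.00297). Each of these 3 genes stayed called with any 1 library left out, with log2 fold changes of 1.32 to 1.59 for SNRPB, 1.15 to 1.24 for SNRPD1 and 0.75 to 0.99 for SNRPD3.

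SNRPD2 (chr19:45687460-45692569, minus strand) encodes SmD2, the partner of SmD1 in the ring. It was at 26.8 and 30.6 CPM in control and at 48.4 and 41.5 CPM in the PRMT5 KD-labelled libraries. Its log2 fold change of 0.65 (SE 0.14, edgeR FDR = 0.00857) was the smallest of the Sm protein genes, and single pairs of libraries differed by 0.44 to 0.85. Without control 1 it was not called (log2 fold change 0.55).

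SNRPE, SNRPF and SNRPG encode the Sm proteins that first assemble with one another as a trimer. SNRPF (chr12:95858952-95903828, plus strand) was at 5.99 and 5.56 CPM in control and at 12.2 and 12.7 CPM in the PRMT5 KD-labelled libraries, a log2 fold change of 1.11 (SE 0.16, edgeR FDR = 0.00187). SNRPG (chr2:70281362-70293740, minus strand) was at 9.93 and 10.2 CPM in control and at 18.9 and 17.1 CPM in the other group, a log2 fold change of 0.84 (SE 0.14, edgeR FDR = 0.00347). Both genes stayed called with any 1 library left out. SNRPE (chr1:203861599-203871152, plus strand) was at 10.0 and 10.9 CPM in control and at 19.6 and 15.7 CPM in the other group. Its log2 fold change was 0.76 (SE 0.16, edgeR FDR = 0.00938). It lost its call without control 1 (log2 fold change 0.70) and without control 2 (0.82).

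The make-up of the Sm protein mRNA differed between the groups. Their summed level was 180 and 168 CPM in control against 392 and 381 CPM in the PRMT5 KD-labelled libraries. SNRPB took 44.9% and 39.7% of that sum in control and 50.0% and 54.2% in the other group. SNRPD2 took 14.9% and 18.2% in control and 12.4% and 10.9% in the other group, so its share moved the opposite way. SNRPD3 had a lower share in both PRMT5 KD-labelled libraries as well, from 13.7% and 14.0% to 12.2% and 10.4%. SNRPE and SNRPG also had lower shares there, down to 4.12% from 5.56% and 6.47% for SNRPE and from 5.52% and 6.04% to 4.82% and 4.48% for SNRPG. SNRPF stayed between 3.12% and 3.33% in all 4 libraries. These shares are descriptions and were not tested.

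**Figure D2:**
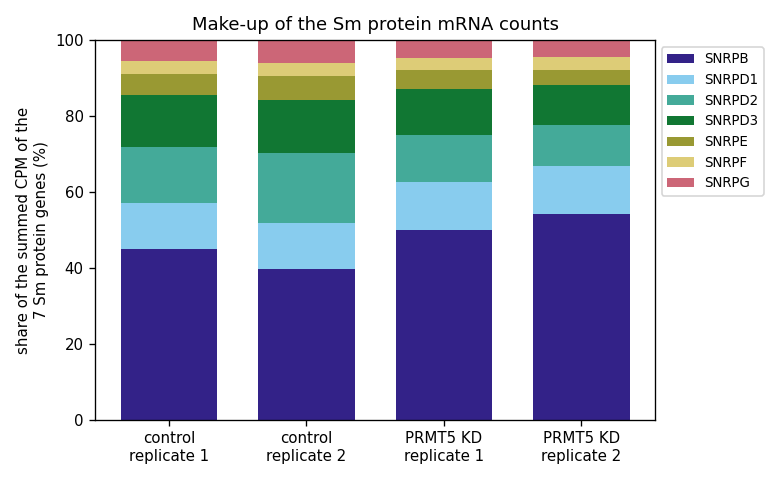
Share of each Sm protein gene, in percent, in the summed CPM of the 7 Sm protein genes, as 1 stacked bar for each library. The SNRPB segment covers 39.7% to 44.9% of the control bars and 50.0% to 54.2% of the PRMT5 KD-labelled bars.

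Levels were compared between genes per kb of the MANE Select transcript. On that scale SNRPB was the highest Sm protein gene in every library, at 74.6 and 61.7 CPM per kb in control and 181 and 191 in the PRMT5 KD-labelled libraries. SNRPD2 followed, at 52.1 and 59.5 CPM per kb in control against 94.1 and 80.6. SNRPG (16.7 and 17.1 in control, 31.8 and 28.7 in the other group) and SNRPF (13.2 and 12.3, then 27.1 and 28.1) came next. SNRPD3 (7.10 and 6.80, then 13.8 and 11.4), SNRPE (6.41 and 6.97, then 12.6 and 10.1) and SNRPD1 (4.50 and 4.23, then 10.1 and 9.86) were lowest. SNRPD3 and SNRPE, neighbours in this order, overlapped in both groups, and SNRPE and SNRPD1 overlapped in the PRMT5 KD-labelled libraries. Among the adaptors COPRS was highest per kb (18.5 and 18.2 in control, 33.7 and 28.7 in the other group), and CLNS1A (8.77 and 9.94) lay above RIOK1 (6.15 and 5.24) in control and below it in the other group (7.14 and 7.40 against 7.90 and 7.59). With the union of all exons as the length, SNRPD2 came before SNRPB in control and SNRPF came last, so the order depends on the transcript assumed.

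CLNS1A (chr11:77514936-77637794, minus strand), which encodes the adaptor for Sm proteins, was at 26.1 and 29.6 CPM in control and at 21.3 and 22.1 CPM in the PRMT5 KD-labelled libraries. Both PRMT5 KD-labelled libraries were below both controls, by 0.24 to 0.48 on the log2 scale between single libraries. The log2 fold change was −0.36 (SE 0.13, edgeR FDR = 0.0524) and was not called. RIOK1 (chr6:7389793-7418037, plus strand) was at 15.4 and 13.1 CPM in control and at 19.7 and 19.0 CPM in the other group. Its log2 fold change of 0.44 (SE 0.14, edgeR FDR = 0.0386) passed the FDR threshold but was under the fold change threshold. COPRS (chr17:31851871-31859291, minus strand) was at 16.1 and 15.8 CPM in control and at 29.3 and 24.9 CPM in the other group, a log2 fold change of 0.77 (SE 0.14, edgeR FDR = 0.00478). COPRS lost its call without control 2 (log2 fold change 0.75). The fold change of CLNS1A mRNA was thus opposite in sign to those of the Sm protein genes and of PRMT5, but it was not called. It was −0.18 with scaling by total counts alone and −0.27 without control 2, and 31.6% of genes tested had a lower fold change.

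**Figure D3:**
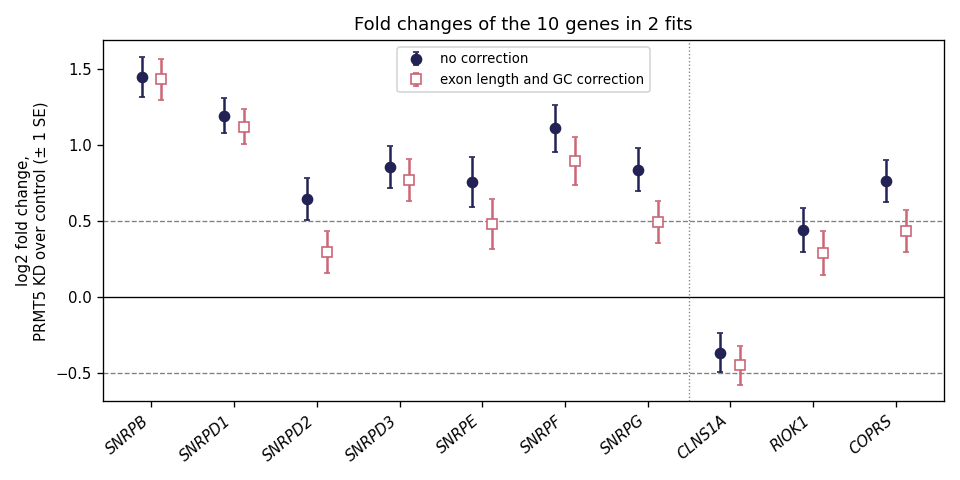
Log2 fold change of each of the 10 genes, PRMT5 KD label over control, with bars of ±1 SE, without correction (filled circles) and after fold changes were corrected for length of exons and GC (open squares). Dashed lines mark the fold change threshold of 0.5 in either direction. The circles of the 7 Sm protein genes all lie above it, and the squares of SNRPD2, SNRPE and SNRPG lie below it.

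Fold changes ran with gene length in these libraries. With the genes tested split into 10 equal bins by union exon length, the bin of the shortest genes had a median log2 fold change of 0.24 and the bin of the longest −0.29, with 32.8% and 9.83% of genes called higher. SNRPD2, SNRPE, SNRPG and COPRS were in the shortest bin and SNRPF and RIOK1 in the next, where 29.2% were called higher. SNRPD3 lay in a bin with 23.2% called higher, and SNRPB, SNRPD1 and CLNS1A in one with 22.4%. Once fold changes had been corrected for length of exons and GC, SNRPB (1.43), SNRPD1 (1.12), SNRPF (0.90) and SNRPD3 (0.77) were still called, with edgeR FDRs from 0.000632 to 0.00448. SNRPD2 (0.30, edgeR FDR = 0.108) was no longer called. SNRPG (0.495, edgeR FDR = 0.0243), SNRPE (0.48, edgeR FDR = 0.0465) and COPRS (0.43, edgeR FDR = 0.0371) passed the FDR threshold but were under the fold change threshold, SNRPG by a small margin. CLNS1A was at −0.45 (edgeR FDR = 0.0268) in the same fit, also under the fold change threshold. The genes that kept the call were the 3 whose products carry the repeat tails, together with SNRPF. The Sm protein genes that lost it were all in the shortest bin, where the correction takes off most. The bins and the correction both used the union of exons, and no fit with the length of the MANE Select transcript was made. By that length SNRPF, at 452 nt, is shorter than SNRPD2 (515 nt) and SNRPG (594 nt), so which genes keep the call may depend on the length used. Whether the repeat tails bear on the fold changes was not tested. On this scale the counts were 4 of 7 Sm protein genes and 0 of 3 adaptors, beside 2817 genes called higher and 2513 called lower of all 11898.

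**Figure D4:**
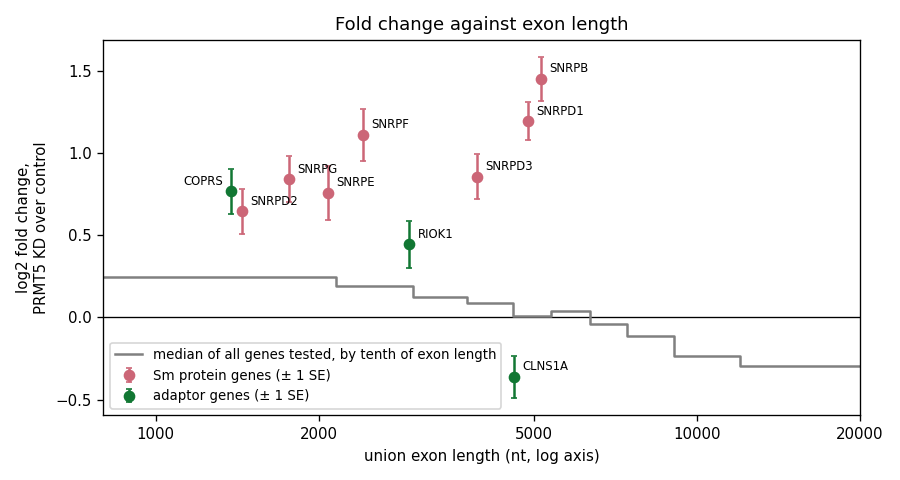
Log2 fold change, PRMT5 KD label over control, against union exon length in nt (log axis, part of the range). The grey steps are the medians of all genes tested in 10 bins of length, falling from 0.24 to −0.29, and points with ±1 SE bars are the Sm protein genes (red) and the adaptor genes (green). The 7 Sm protein genes lie above the steps and CLNS1A below them.

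Near-identical copies bear on Sm protein genes, because several have processed pseudogenes. GENCODE release 44 names 39 pseudogenes of the 10 genes, 20 of them of SNRPG and 10 of SNRPE, against 4 of SNRPF, 2 of SNRPD2 and none of SNRPD1, SNRPD3 or RIOK1. Only 1 of these names, SNRPD2P2, had a row in the tables, with 0 counts in all 4 libraries. How reads shared with copies were assigned is not given in the sources used here, so the levels of SNRPG and SNRPE are less certain than that of SNRPD1.

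The other genes of snRNP assembly are described by role, from lists chosen with earlier results of these data known. In the SMN complex, which loads Sm proteins onto snRNA, 7 of 10 genes were called higher, 1 lower and 2 were not called (median log2 fold change 0.67), beside 21.2% higher and 24.3% lower of all genes tested. GEMIN4 rose from 45.6 ± 1.76 to 108 ± 23.1 CPM (SD, n = 2; log2 fold change 1.24, edgeR FDR = 0.00158). GEMIN5, the subunit that recognises snRNA, rose from 59.1 ± 8.06 to 117 ± 14.1 CPM (SD, n = 2; 0.98, edgeR FDR = 0.00236). GEMIN8 fell from 13.1 ± 0.0681 to 5.94 ± 2.42 CPM (SD, n = 2; log2 fold change −1.14, edgeR FDR = 0.0175). That call was lost without control 1 (−1.15) and without control 2 (−1.13). Its PRMT5 KD-labelled libraries lay apart, at 7.65 and 4.22 CPM. The log2 fold change was −1.59 without PRMT5 KD 1 and −0.77 without PRMT5 KD 2. SMN1 (0.71) and SMN2 (0.64) are near-identical copies, so the split of reads between them is uncertain. Of the LSm genes, which encode ring proteins related to the Sm proteins, 8 of 10 were called higher and none lower (median 0.79), again beside 21.2% higher of all genes. LSM6 (1.09, edgeR FDR = 0.00883) and LSM3 (1.05, edgeR FDR = 0.00227) changed most, and LSM6 lost its call without control 2 (0.92). LSM4, whose coding sequence has 8 arginine and glycine codon pairs and whose product is also a PRMT5 substrate, was at 0.44 (edgeR FDR = 0.023) and was not called.

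Of 26 genes for proteins specific to single snRNPs, 17 were called higher, 1 lower and 8 were not called (median 0.61), beside the same 21.2% and 24.3% of all genes. PPIH, a cyclophilin of the tri-snRNP, rose from 7.61 ± 0.528 to 19.0 ± 1.06 CPM (SD, n = 2; edgeR FDR = 0.000839), and PRPF4, its partner in that particle, rose by a log2 fold change of 1.10 (edgeR FDR = 0.000902). PRPF8, the large scaffold of the spliceosome core, fell by 0.72 on the log2 scale (edgeR FDR = 0.00585). It was not called after the length and GC correction (−0.37), without control 1 (−0.72) or without control 2 (−0.73). Among 8 genes of snRNA export, cap formation and import, 2 were called higher, none lower and 6 were not called (median 0.19), and 2 of 8 is near the 21.2% called higher of all genes. The called genes were KPNB1, the importin that carries snRNPs back to the nucleus (0.57, edgeR FDR = 0.0131), and COIL, which encodes the Cajal body protein coilin (0.55, edgeR FDR = 0.0128). Neither KPNB1 nor COIL was called without control 1 (0.67 and 0.64) or without control 2 (0.49 and 0.47). After the length and GC correction the calls were 5 higher and 1 lower in the SMN complex and 5 higher among LSm genes. There were 18 higher among snRNP-specific genes and 2 higher in the export and import list, beside 2817 higher and 2513 lower of all 11898 genes. The genes called were not all the same as before. In the export and import list KPNB1 (0.82) stayed called and COIL (0.41) lost its call, whereas XPO1 (0.75, against 0.31 without the correction) gained one. Among snRNP-specific genes SF3B2, SF3B3 and SART1 gained a call and SNRPA and SNRPC lost theirs. Without control 1, and likewise without control 2, fewer genes were called in each of these lists and also over all genes tested.

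**Figure D5:**
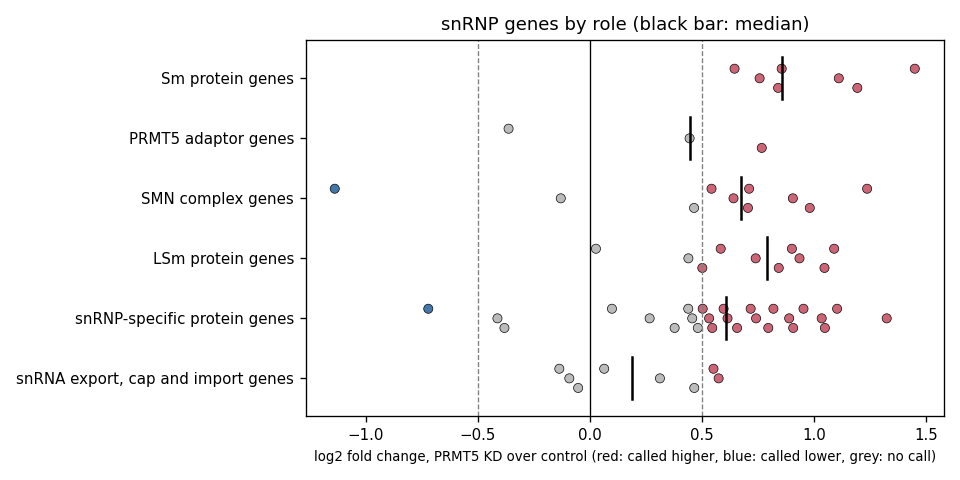
Log2 fold change, PRMT5 KD label over control, of every gene in the 6 lists of snRNP genes, 1 point for each gene (red called higher, blue called lower, grey no call). Black bars are the list medians, from 0.19 for export, cap and import genes to 0.86 for Sm protein genes, and dashed lines mark the threshold of 0.5.

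The snRNAs that Sm proteins bind gave unsteady counts. The 24 spliceosomal snRNA genes summed to 52.5 and 162 CPM in control and to 21.5 and 65.4 CPM in the PRMT5 KD-labelled libraries. The groups overlapped in this sum, and the libraries of each group lay far apart. By class, U2, U4 and U5 genes did not overlap and were lower in the PRMT5 KD-labelled libraries. U2 was at 5.71 and 12.1 CPM in control against 1.22 and 3.91, and U4 at 15.5 and 26.8 against 6.76 and 13.9. U5 was at 1.64 and 4.16 CPM against 0.336 and 0.732. Groups also did not overlap for 80.5% of all genes tested. U1 genes gave 1129 and 5862 counts in control and 595 and 2211 in the other group. Of the U1 genes RNU1-3, RNU1-4 and RNVU1-18 were at 0 counts in both libraries numbered 1, and RNU1-1 had 1129, 2423, 595 and 1123 counts in control 1, control 2, PRMT5 KD 1 and PRMT5 KD 2. These are multi-copy genes, and no test was made. The values do not parallel those of the Sm protein genes, whose libraries within a group lay close together.

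Genes whose pattern over the 4 libraries was most like that of the Sm protein genes were found by the root mean square (RMS) difference of log2 CPM, centred on each gene's mean, among 10067 genes. The nearest to the mean Sm profile were NAA20 (RMS difference 0.0221), KLHL21 (0.0259), NPM1 (0.0278), RABGGTA (0.0296) and YWHAH (0.0319), with log2 fold changes of 0.94 to 0.99. For CLNS1A the nearest were PIP4K2B (0.00676), PPP2R3A (0.00971) and DYNC2LI1 (0.00981). DNAJC11 (0.0108), BDP1 (0.0120) and NUDT19 (0.0141) were nearest to RIOK1, and TIMM17B (0.0147), PEX16 (0.0175) and PSMD8 (0.0183) to COPRS. With 4 libraries in 2 groups this measure mostly reflects the size of the group difference.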

How the data were processed

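RNA-seq of UMSCC74B cells was taken from 1 table per library, 2 control and 2 PRMT5 KD-labelled. The authors deposited estimated counts per gene, not normalized, of which 86.0% to 86.8% were whole numbers. Per the labels, total RNA was used with a directional kit on a Singular Genomics G4, and the submitters' processing notes list FastQC, Trim Galore, STAR, Salmon and DESeq2 with GRCh38. The study's methods describe featureCounts on Gencode protein-coding genes, whereas the tables hold decimals and RefSeq-style names. The program behind the estimates, and how it used strand, is not given in the sources used here. Of 29744 entries, 28 with names turned into dates were left out (0.150% to 0.161% of counts). Names were matched to GENCODE release 44 (18923 protein-coding), which also gave coordinates, exon lengths and coding sequences. 4996 names had no match and 102 were ambiguous.

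Counts were rounded, and 11898 protein-coding genes were tested, those that reached an RPKM of 0.5 in both control or both PRMT5 KD-labelled libraries. The quasi-likelihood test of edgeR 4.0.16 (robust, TMM factors 0.946, 0.934, 1.04 and 1.09, R 4.3.3) had no replicate term, and standard errors came from its F statistic. The biological coefficient of variation was 0.142. CPM values are scaled to the summed counts of the genes tested and the TMM factors, and protein-coding totals were 41972440 to 53688957 per library. Correction for length and GC used natural splines with 4 degrees of freedom. The main fit and the fit with the length and GC correction were tested on simulated data, and the other fits were not. Alternatives were other scalings, filters, gene sets and dispersions, DESeq2 1.42.0, the second fold change threshold of 1 that the study gives, the replicate block, the length and GC correction, and each library left out. Where 1 library remained in a group, it was assumed to vary like the others.

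The 10 genes and all lists were chosen with earlier results of these data known. Named genes are the 10, PRMT5 and WDR77, from each list the 2 called genes that rose most and the 2 that fell most, and the 5 (Sm mean) or 3 (each adaptor) most alike genes with average log2 CPM of at least 3. SMN1, SMN2, LSM4, MKI67, XPO1, SNRPA, SNRPC, SF3B2, SF3B3, SART1 and single U1 genes were named after their values were seen. FXR1 KD and eCLIP data were not analysed here. The tail sequence of 1 gene is not reported here.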

Additional observations from a re-analysis of the deposited data

How the results depend on the processing

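All 7 Sm protein genes stayed called under the other scalings, filters, gene sets and dispersions and in DESeq2, and no log2 fold change of the 10 genes, PRMT5 or WDR77 changed sign under any alternative. At a fold change threshold of 1, 2560 of the 11898 genes were called in all, 1032 higher and 1528 lower. Among them were 3 Sm protein, 2 LSm and 4 snRNP-specific genes, all higher, and 0 adaptor and 0 export and import genes. In the SMN complex 2 genes were called, 1 higher and 1 lower. After the length and GC correction the calls were 4 Sm protein, 0 adaptor and 5 LSm genes. With scaling by total counts alone, the median over all genes moved on the log2 scale from −0.01 to 0.17, 3509 genes were called higher and 2200 lower (2522 and 2896 with TMM), and 2 adaptor genes were called because RIOK1 rose to 0.62 (edgeR FDR = 0.0118). Leaving out 1 library at a time gave 3109 to 5707 genes in all, 5 to 7 Sm protein, 0 to 1 adaptor, 2 to 9 SMN complex, 3 to 8 LSm, 11 to 19 snRNP-specific and 0 to 3 export and import genes. The cause of these shifts was not tested.

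Over the genes tested, the replicate numbers were not shown to pair the libraries. There, the deviations of same-numbered libraries from their group means had a correlation of −0.10. The snRNA genes, which were outside that set, did differ by number. Their sum was 162 CPM in control 2 and 65.4 in PRMT5 KD 2, against 52.5 in control 1 and 21.5 in PRMT5 KD 1. What lay behind this was not tested. With the replicate block 5185 genes were called, with 7 Sm protein, 1 adaptor, 8 SMN complex, 7 LSm, 18 snRNP-specific and 2 export and import genes. With the block together with the length and GC correction 4 Sm protein, 0 adaptor and 4 LSm genes were called. With crossed pairing, chosen after seeing the data, 5485 genes were called, 7 of them Sm protein and 7 LSm genes. Adding pseudogene counts could not be tried in effect, since the only pseudogene with a row had 0 counts. Between 237 and 9887 counts stood behind each value of a Sm protein gene, and the number of libraries and these counts both limit precision.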
